A study of Mus musculus with 8 samples.

Results

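Platelet-derived growth factors (PDGFs) and angiopoietins are signals that the cells of vessel walls and connective tissue exchange. The set described here holds the 4 PDGF ligands (Pdgfa, Pdgfb, Pdgfc and Pdgfd), both PDGF receptors (Pdgfra and Pdgfrb), the angiopoietins Angpt1 and Angpt2, and both Tie receptor kinases (Tek, also called Tie2, and Tie1). Rows were taken by gene symbol, and the members were chosen with earlier results of these data known. All 10 were found among the 32285 genes of each matrix.

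The data are counts of unique molecular identifiers (UMIs, 1 for each captured RNA molecule) in single nuclei of adult mouse heart, from 10x Genomics droplets. The animals were female or male and either wild type without a transgene (nTg) or transgenic (Tg), with constitutive expression of cyclin A2, a cell-cycle regulator encoded by Ccna2. The labels used here give neither the promoter of the transgene nor the age or strain of the animals, and do not say whether a library holds 1 heart or several. Of the 8 labelled libraries, 5 had a matrix matching their own barcode list and were used. These were nTg female 1, the Tg female libraries 1 and 2 and the Tg male libraries 1 and 2, and where 5 values are given below they stand in this order. The matrices of the other 3 were identical to those of Tg libraries and their labels were not used. Ccna2 in cardiomyocytes went against 2 labels: it stood at 444 CPM (UMIs scaled to a total of 1000000 per library and type) in the library labelled nTg female 1 and at 0.524 CPM in the library labelled Tg female 1, against 828 CPM in Tg female 2, 232 CPM in Tg male 1 and 143 CPM in Tg male 2. Every name below is therefore that of a label. Totals ran from 25045167 to 38593706 UMIs a library, and 34224 nuclei were kept. Pairs of libraries shared between 14 and 28 barcodes, at most 0.341% of a library.

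PDGFs act as dimers. PDGF-A and PDGF-C bind mainly the receptor encoded by Pdgfra, PDGF-D binds mainly that encoded by Pdgfrb, and PDGF-B binds both. PDGF-B from endothelium recruits pericytes, the mural cells of capillaries, and Pdgfra marks cardiac fibroblasts. Angiopoietin 1 activates Tek on endothelial cells and steadies vessels, angiopoietin 2 acts on the same receptor in a context-dependent way, and Tie1 is a co-receptor of Tek for which no direct ligand of its own is firmly established.

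Promoter sequence was at hand for 6 of the 10 genes (RefSeq, GRCm38.p6). The entries for Pdgfb, Pdgfrb, Angpt1 and Angpt2 were missing. The 250 bases before the start are shown for Tek, Tie1 and Pdgfd, which were all high in endothelial nuclei, and for Pdgfra, which was high in fibroblasts. Capitals mark AGGAAG or its reverse complement CTTCCT, a form of the site bound by ETS factors, a family active in endothelium. The windows lie at chr4:94739039-94739288 (plus strand) for Tek, chr4:118489850-118490099 (minus strand) for Tie1, chr9:6168236-6168485 (plus strand) for Pdgfd and chr5:75152001-75152250 (plus strand) for Pdgfra, and each is written 5′ to 3′ on the strand of its gene.
Tek: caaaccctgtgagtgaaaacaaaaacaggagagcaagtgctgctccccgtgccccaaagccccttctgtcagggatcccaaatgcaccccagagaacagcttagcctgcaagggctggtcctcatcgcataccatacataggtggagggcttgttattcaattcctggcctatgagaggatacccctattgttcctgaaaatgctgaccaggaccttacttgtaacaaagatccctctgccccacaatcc
Tie1: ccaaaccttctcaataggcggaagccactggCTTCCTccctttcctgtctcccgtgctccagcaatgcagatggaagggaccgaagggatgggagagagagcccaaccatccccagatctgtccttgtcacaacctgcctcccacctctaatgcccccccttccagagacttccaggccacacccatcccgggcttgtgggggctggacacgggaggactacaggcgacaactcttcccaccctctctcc
Pdgfd: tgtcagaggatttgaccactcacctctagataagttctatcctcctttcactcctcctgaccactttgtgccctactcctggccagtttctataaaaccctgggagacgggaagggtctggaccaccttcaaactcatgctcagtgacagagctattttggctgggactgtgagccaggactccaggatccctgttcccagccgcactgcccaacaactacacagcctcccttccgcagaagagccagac
Pdgfra: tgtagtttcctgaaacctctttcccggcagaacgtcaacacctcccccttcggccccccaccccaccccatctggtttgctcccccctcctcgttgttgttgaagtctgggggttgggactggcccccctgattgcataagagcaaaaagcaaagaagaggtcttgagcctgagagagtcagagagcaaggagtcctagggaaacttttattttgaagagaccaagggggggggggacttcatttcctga
The motif was found once in the window of Tie1 and not in those of Tek, Pdgfd and Pdgfra. Of 32851 promoter windows of this length in the table, 29.5% held it on either strand. Pdgfd held AGATAA or its complement, the GATA form, which 9.99% of the windows held, and TATAAA or its complement, held by 12.4%. These are matches of letters only, before the starts that RefSeq gives.

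Nuclei were clustered without the 10 members, and clusters were named by resemblance to marker lists that also left the members out. Each type name below therefore means nuclei like that type. In all, 13 types were described, and 102 of 115 markers were highest in their own type. Since the same lists gave the names, this count is not an independent check of them. The 8 types with at least 50 nuclei in every library were fibroblast (12225 nuclei), endothelial (7070), cardiomyocyte (6534), macrophage (2383), pericyte (2178), endocardial (1321), lymphatic endothelial (760) and smooth muscle (516). Dendritic or monocyte, Schwann, T or NK lymphocyte, mesothelial and B lymphocyte nuclei were fewer, 71 to 205 in all. Levels are CPM of the UMIs summed per library and type, as mean ± SD over the 5 libraries (n = 5), with no test between types. CPM is not corrected for gene length, so values are compared between cell types for 1 gene and not between genes.

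**Figure D1:**
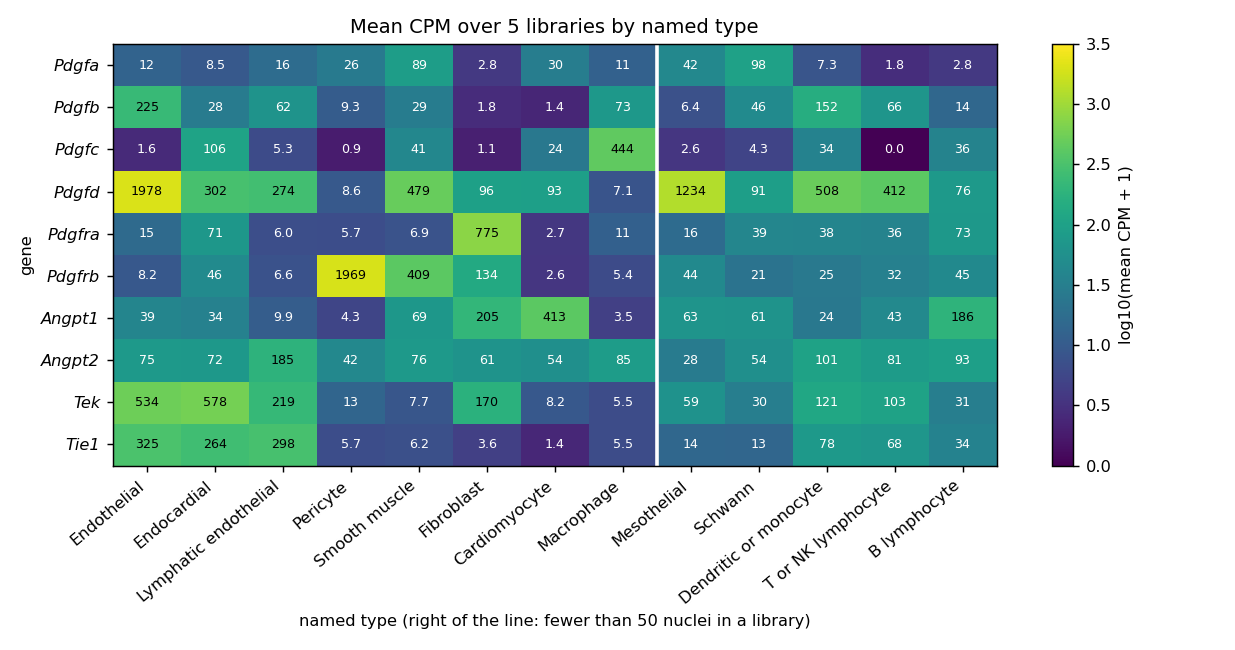
Mean CPM over 5 libraries of each gene (rows) in each named type (columns), coloured by log10(mean CPM + 1), with the mean written in each cell. Pdgfb, Pdgfd, Tek and Tie1 were high in endothelial nuclei, Pdgfra in fibroblasts, Pdgfrb in pericytes, Angpt1 in cardiomyocytes and Pdgfc in macrophages.

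Pdgfb and Pdgfd, a pair of ligands for the receptor of mural cells, came mostly from endothelial nuclei. Pdgfb (chr15:79995874-80014977, GRCm38, minus strand) stood at 168 CPM in nTg female 1, 246 in Tg female 1, 253 in Tg female 2, 217 in Tg male 1 and 241 in Tg male 2 in endothelial nuclei. The mean was 225 ± 34.8 CPM, and these nuclei held 74.9% ± 6.76 of all Pdgfb UMIs. The nTg library was the lowest, and the 4 Tg libraries lay close together. Dendritic or monocyte nuclei followed at 152 ± 70.4 CPM, with a range that overlapped the endothelial one. In these 205 nuclei the 11 endothelial markers stood at 18.6% to 51.7% of their endothelial level, Tie1 at 6.52% to 50.7% and Pdgfb at 31.9% to 95.1%, and the part of endothelial RNA was not tested. Macrophages followed at 73.5 ± 22.1 CPM. In macrophages Pdgfb stood at 18.7% to 39.2% of its endothelial level, whereas the 11 endothelial markers summed to 2.32% to 5.28% of theirs. Cardiomyocytes and fibroblasts held 1.38 ± 0.319 and 1.79 ± 0.169 CPM.

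Pdgfd (chr9:6168584-6378850, plus strand) reached 1662, 2196, 1642, 1838 and 2552 CPM in endothelial nuclei. The libraries of either sex spanned each other, and the mean was 1978 ± 390 CPM, or 70.6% ± 3.75 of all Pdgfd UMIs. Mesothelial nuclei, the covering layer of the heart, held 1234 ± 437 CPM, though from 105 nuclei, and overlapped the endothelial range. Smooth muscle held 479 ± 98.1 CPM, endocardial nuclei 302 ± 84.8 and lymphatic endothelial nuclei 274 ± 43.3, and these 3 overlapped as neighbours. Smooth muscle Pdgfd was 20% to 32.2% of the endothelial level, beside 1.68% to 5.77% for the endothelial markers. In cardiomyocytes, at 93.4 ± 23.0 CPM, it was 3.42% to 6.38% of the endothelial level. The endothelial markers stood there at 10.5% to 14.7% of theirs. Means in cardiomyocytes and endothelial nuclei were 1.43 and 325 CPM for Tie1, 8.21 and 534 for Tek and 1.38 and 225 for Pdgfb. The part of endothelial RNA in cardiomyocytes was not tested. Pericytes, which carry the receptor, held 8.59 ± 6.89 CPM of Pdgfd.

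Within the endothelial nuclei the ligands differed between clusters, which were formed without them. Cluster 11 (led by Sema3g, Gja5 and Lama3, with 5 of 7 arterial markers at their highest) held 3178 ± 648 CPM of Pdgfd and cluster 9 (Btnl9, Cobl, Gm12002; 4 of 4 capillary markers) 2671 ± 463 CPM. Cluster 12 (Kit, Bcl6b, Nav3) held 1428 ± 297 CPM and cluster 14 (G630055G22Rik, Aqp1, Lhx6; 3 of 4 venous markers) 1190 ± 321 CPM. The lowest library of cluster 11 (2435 CPM) and of cluster 9 (2274 CPM) lay above the highest of clusters 12 (1765 CPM) and 14 (1723 CPM). Pdgfb was lowest in cluster 14, at 155 ± 14.3 CPM against 302 ± 52.0, 250 ± 55.8 and 248 ± 30.7 CPM in clusters 9, 11 and 12. Of the 3 venous markers highest in cluster 14, Nr2f2 stood at 149 CPM and Ephb4 at 300 CPM, but Ackr1 at only 0.954 CPM. The other, Selp, was highest in cluster 11 (13.9 CPM, against 5.19 CPM in cluster 14). Capillary markers remained in cluster 14, with Cd36 at 3044 CPM against 3640 in cluster 9 and Gpihbp1 at 584 against 753. Rgcc stood at 443.5 against 651 CPM and Car4 at 113 against 235 CPM. Whether cluster 14 is venous was not tested.

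The other pair of ligands, which act mainly through Pdgfra, had other sources. Pdgfc (chr3:81036416-81214040, plus strand) was highest in macrophages, at 253 CPM in nTg female 1, 346 in Tg female 1, 354 in Tg female 2, 567 in Tg male 1 and 699 in Tg male 2. The 2 male libraries were above all 3 female libraries. The mean was 444 ± 183 CPM and its range did not overlap that of any other type. Macrophages held 54.7% ± 11.1 of the Pdgfc UMIs and cardiomyocytes, at 24.5 ± 4.93 CPM but with the highest median UMI count of the 8 tested types, 27.8% ± 6.92. Endocardial nuclei held 106 ± 56.4 CPM, or 8.75% to 43.8% of the macrophage level, while the 10 macrophage markers stood at 1.08% to 1.85% of theirs. Fibroblasts, the main carriers of Pdgfra, held 1.05 ± 0.372 CPM.

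Pdgfa (chr5:138976014-138997370, minus strand) had its highest levels in small populations. Schwann nuclei, the glia of peripheral nerves, held 98.4 ± 39.8 CPM from 56 UMIs, and smooth muscle 88.8 ± 16.8 CPM, and the ranges overlapped. Cardiomyocytes were even across libraries, with 32.1, 31.3, 28.3, 28.7 and 27.0 CPM. These nuclei, with the highest median UMI count of the 8 types, held 64.5% ± 5.89 of all Pdgfa UMIs. Fibroblasts were near the bottom at 2.81 ± 1.24 CPM.

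**Figure D2:**
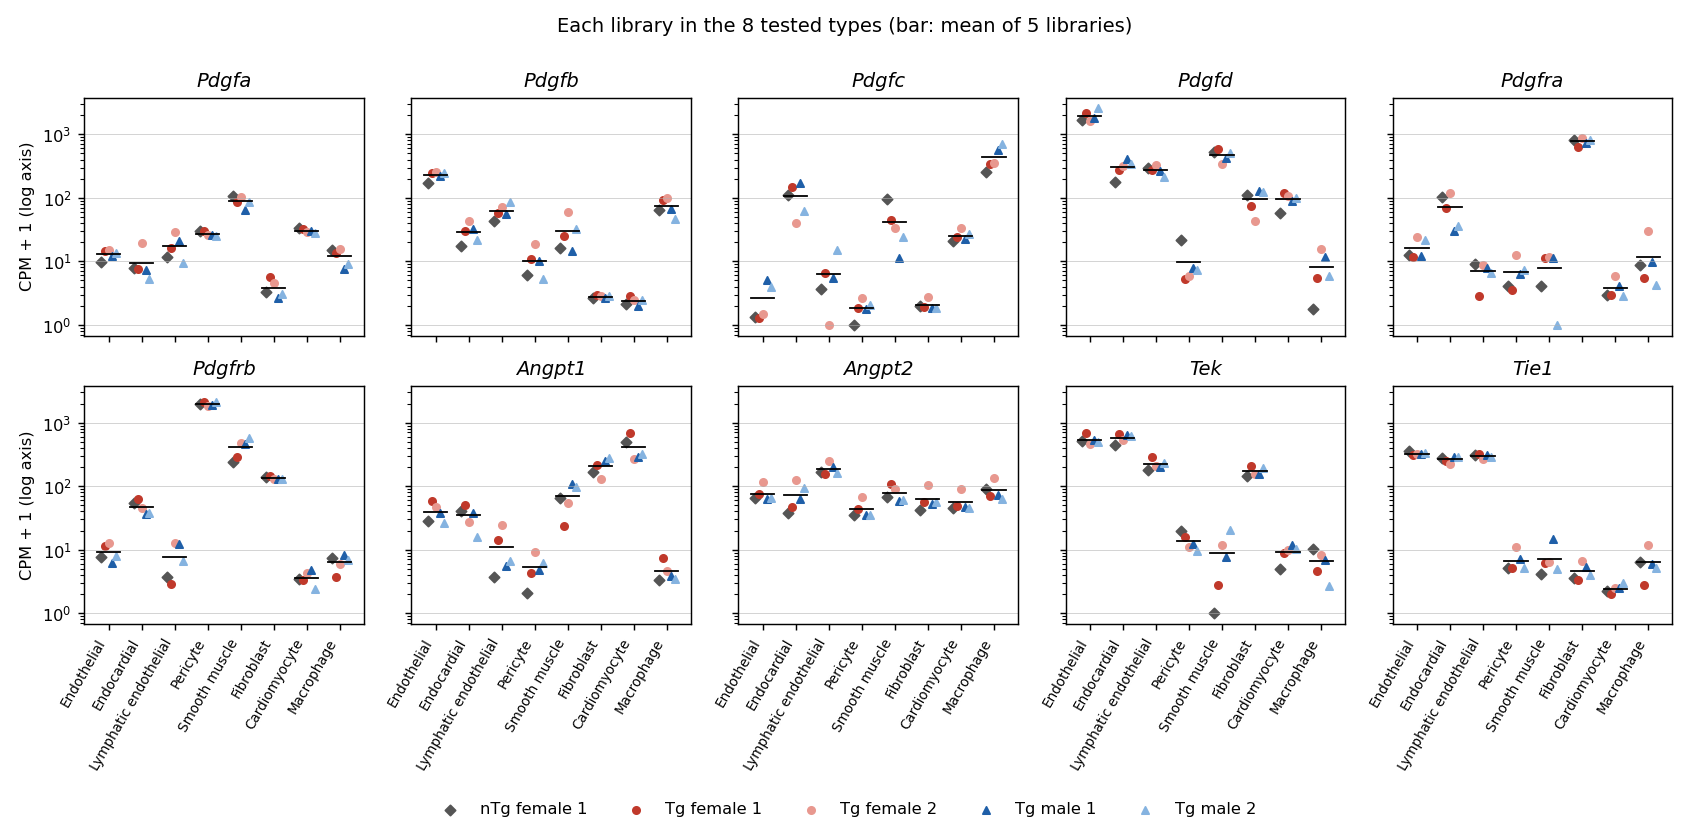
CPM + 1 on a log axis for each gene (panels) in the 8 tested types, with 1 point for each library and a bar at the mean of the 5. Pdgfrb in pericytes and Tie1 in the 3 endothelial types varied little between libraries, while Pdgfc in macrophages ran from 253 to 699 CPM.

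The PDGF receptors marked fibroblasts and mural cells. Pdgfra (chr5:75152292-75198215, plus strand) lay between 637 CPM (Tg female 1) and 869 CPM (Tg female 2) in fibroblasts, with a mean of 775 ± 91.9 CPM, and these nuclei held 95.3% ± 1.30 of its UMIs. No other type reached the fibroblast range. Across fibroblast clusters 0 to 3 the mean lay between 700 ± 99.4 and 830 ± 104 CPM. Endocardial nuclei held 70.8 ± 40.3 CPM, 3.96% to 13.8% of the fibroblast level, beside 7.83% to 17.0% for the 10 fibroblast markers. The part of fibroblast RNA in that level was not tested.

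Pdgfrb (chr18:61045150-61085061, plus strand) stood at 1958, 2089, 1835, 1883 and 2078 CPM in pericytes. Pericytes averaged 1969 ± 114 CPM, smooth muscle 409 ± 139, fibroblasts 134 ± 8.54 and endocardial nuclei 46.2 ± 11.3, and each of the first 3 lay above the next in every library without overlap. In fibroblasts it was 6.11% to 7.11% of the pericyte level, while the 9 pericyte markers stood at 0.726% to 1.35% of theirs. Fibroblasts, the most numerous nuclei, held 28.9% ± 4.18 of all Pdgfrb UMIs, against 61.6% ± 5.87 in pericytes. Among fibroblast clusters it ran from 94.6 ± 14.3 CPM in cluster 0 (Gfpt2, Adgrd1, Plcxd3) to 176 ± 26.6 CPM in cluster 2 (Kcnip1, Necab1, Tll2), and these ranges did not overlap.

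Angpt1 (chr15:42424723-42676977, minus strand), the activating ligand of Tek, came from cardiomyocytes and fibroblasts. Cardiomyocytes held 497 CPM in nTg female 1, 688 in Tg female 1, 267 in Tg female 2, 290 in Tg male 1 and 324 in Tg male 2. Tg female 1, the library with almost no Ccna2, was the highest, and the mean was 413 ± 178 CPM, or 69.3% ± 9.27 of all Angpt1 UMIs. Fibroblasts followed at 205 ± 58.1 CPM, lower within each of the 5 libraries although the ranges overlapped across them, and held 25.1% ± 8.30 of the UMIs. The fibroblast level was 30.6% to 84.6% of that in cardiomyocytes, while the 10 cardiomyocyte markers stood at 2.83% to 4.27% of theirs. Pericytes, known as a source of Angpt1 in some other vessel beds, held 4.32 ± 2.64 CPM.

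Angpt1 was uneven within its source types. Cardiomyocyte cluster 7 (Rp1, Rgs13, Gm47712) held 793 ± 403 CPM, against 276 ± 115 in cluster 5 (Gm41505, Ankrd1, Nppb) and 262 ± 174 in cluster 6 (Nppa, Actc1, Ankmy1). The other 2 cardiomyocyte clusters had at least 20 nuclei in 3 libraries each, and held 258 ± 71.6 CPM (cluster 8, 1962 nuclei) and 215 ± 239 CPM (cluster 22, 124 nuclei; n = 3). In each of the 5 libraries cluster 7 was above clusters 5 and 6, and in each of these 3 clusters Tg female 1 was the highest library, with 1462, 465 and 540 CPM. Fibroblast cluster 1 (Acss3, Grm8, Lvrn) held 408 ± 54.4 CPM against 116 ± 35.3 to 190 ± 46.5 CPM in the other 3 fibroblast clusters, with no overlap. Among endothelial nuclei, cluster 11 held 122 CPM in nTg female 1, 296 in Tg female 1, 232 in Tg female 2, 176 in Tg male 1 and 91.7 in Tg male 2. The mean of 184 ± 82.4 CPM stood against 9.43 ± 4.91, 5.77 ± 4.24 and 6.10 ± 4.76 CPM in clusters 9, 12 and 14, again without overlap. Cardiomyocyte markers summed to 1455 to 2474 CPM in cluster 11 and to 2019 to 2783 CPM in cluster 9, all 10 being detected in both. Fibroblast markers summed to 208 to 1021 CPM in cluster 11 and to 429 to 1487 CPM in cluster 9. Smooth muscle markers were higher in cluster 11, at 108 to 201 CPM against 62.8 to 99.6 CPM, with 3 to 7 of 8 detected. Endocardial markers differed most of these lists, at 490 to 904 CPM in cluster 11 against 34.8 to 90.8 in cluster 9, 16.3 to 47.3 in cluster 12 and 193 to 442 in cluster 14. Endocardial and smooth muscle nuclei held 33.5 ± 13.6 and 69.2 ± 34.5 CPM of Angpt1, the latter with a range (22.6 to 108 CPM) that overlapped that of cluster 11. The part of these cell types, and that of cardiomyocytes and fibroblasts, in the level of cluster 11 was not tested.

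**Figure D3:**
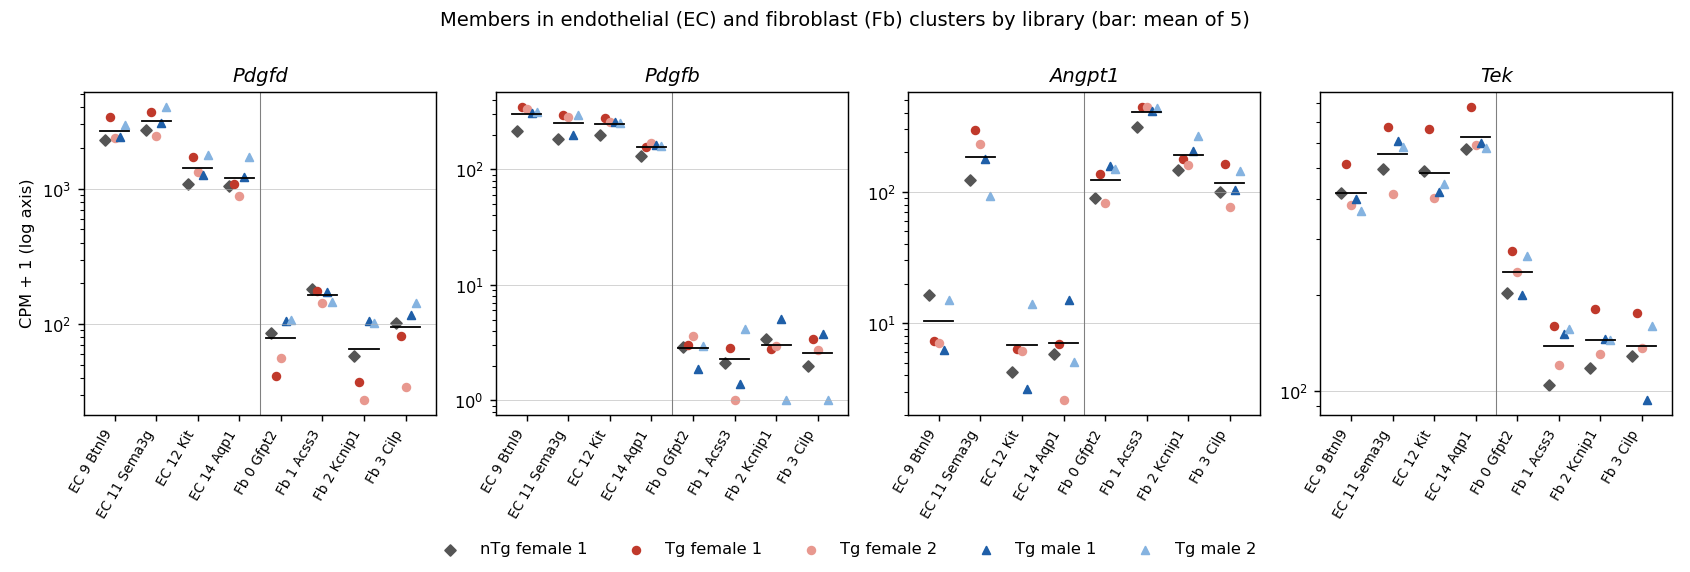
CPM + 1 on a log axis of 4 members in the 4 endothelial (EC) and 4 fibroblast (Fb) clusters, each named by number and a leading gene, with 1 point for each library and a bar at the mean. Angpt1 in the endothelium was high in cluster 11 (184 CPM) and below 10 CPM on average in the other 3 endothelial clusters.

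Angpt2 (chr8:18690263-18741562, minus strand) was highest in lymphatic endothelial nuclei, with 168, 154, 244, 196 and 161 CPM. The mean was 185 ± 36.7 CPM, and no other tested type reached this range. Elsewhere it was nearly flat, from 27.9 ± 29.3 CPM in mesothelial nuclei to 101 ± 56.7 in dendritic or monocyte nuclei, and endothelial nuclei (75.2 ± 22.0) did not stand out from fibroblasts (61.0 ± 24.4) or cardiomyocytes (54.3 ± 19.3). Tg female 2 was the highest library in 7 of the 8 tested types. The gene lies within Mcph1 (chr8:18595131-18803189, plus strand), a gene of chromosome condensation and DNA repair. Exons overlap, and the sources used here do not state that counting used strand, so whether reads of the pair were kept apart is unknown. Mcph1 was also highest in lymphatic endothelial nuclei (115 ± 26.5 CPM), lay between 38.5 and 69.5 CPM on average in the other 7 tested types, and was highest in Tg female 2 in 6 of 8 types. In the unnamed cluster of cycling nuclei (Top2a, Diaph3, Neil3; 129 nuclei) Angpt2 came to 314 CPM from 177 UMIs and Mcph1 to 179 CPM from 101 UMIs.

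Tek (chr4:94739289-94874976, plus strand), the receptor of both angiopoietins, was shared by endocardial and endothelial nuclei. It stood at 451, 668, 538, 627 and 609 CPM in endocardial nuclei, and at 510, 676, 457, 527 and 502 CPM in endothelial nuclei of the same libraries. The means of 578 ± 85.5 and 534 ± 83.4 CPM overlapped. Lymphatic endothelial nuclei held 219 ± 41.2 CPM. Among endothelial clusters Tek was highest in cluster 14 (624 ± 86.2 CPM), where Pdgfd and Pdgfb were lowest, and lowest in cluster 9 (416 ± 59.1 CPM), with no overlap between the ranges.

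Fibroblasts also held Tek, at 144, 208, 152, 155 and 192 CPM. With a mean of 170 ± 27.8 CPM they accounted for 33.2% ± 3.80 of all Tek UMIs, more than the 12.3% ± 2.54 in endocardial nuclei. The level was 28.2% to 38.2% of that in endothelial nuclei, while the 11 endothelial markers summed to 1.28% to 3.04% of theirs and Tie1 to 0.734% to 1.76% of its own. Fibroblast cluster 0 held 235 ± 34.6 CPM, against 138 to 143 CPM on average in clusters 1 to 3, and was the highest fibroblast cluster.

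Tie1 (chr4:118471191-118490061, minus strand) was even over the 3 endothelial types, with 325 ± 17.3 CPM in endothelial, 298 ± 23.6 in lymphatic endothelial and 264 ± 28.2 in endocardial nuclei, neighbours in that order overlapping. Endothelial values were 352, 306, 320, 319 and 330 CPM. Fibroblasts held 3.58 ± 1.38 CPM and cardiomyocytes 1.43 ± 0.361 CPM.

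Shares of nuclei with a UMI were taken after thinning each nucleus to 1000 UMIs, which left out 0.918% to 7.04% of the nuclei of a type. Pdgfrb was then seen in 84.0% ± 2.00 of pericytes (95% ± 3.03 unthinned), 28.6% ± 8.97 of smooth muscle and 12.2% ± 0.879 of fibroblast nuclei. In cardiomyocytes, which should lack it, the share was 0.298% ± 0.0791. The median depths before thinning were 2594 UMIs (fibroblasts), 1932 UMIs (endothelial), 2182 UMIs (pericytes) and 6996 UMIs (cardiomyocytes). Pdgfd was seen in 69.0% ± 5.39 of endothelial and 68.5% ± 20.2 of mesothelial nuclei, against 0.580% ± 0.382 of pericytes, and Pdgfra in 51.5% ± 5.09 of fibroblasts against 0.308% ± 0.138 of cardiomyocytes. Tek was seen in 38.4% ± 3.81 of endothelial and 14.1% ± 1.93 of fibroblast nuclei, against 0.691% ± 0.189 of cardiomyocytes, and Tie1 in 28.2% ± 1.19, 0.376% ± 0.129 and 0.0965% ± 0.0637 of the same types.

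Joint detection counted nuclei that carried UMIs of a pair of members. In fibroblasts Tek and Tie1 were found together in 3 of 12036 nuclei (0.0249%), against 0.0546% from the product of the separate shares, Tie1 without Tek being seen in 43 nuclei. In fibroblasts, 769 of 12036 thinned nuclei (6.39%) had UMIs of Pdgfra and Pdgfrb, against a product of 6.22%. In endothelial nuclei Tek and Tie1 were found together in 11.2%, against a product of 10.9%. Pdgfd and Pdgfrb, a ligand with its receptor, were together in 4.16% of smooth muscle nuclei (21 of 505), against a product of 7.41%. These shares have no test.

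Over the 13 types, the genes with the profile most like each member were found by Pearson's r of mean log2(CPM + 1) among 15544 genes, as a description over 13 points that share libraries. The 3 nearest to Tie1 were Cdh5 (r = 0.979), the adhesion molecule of endothelial junctions, Rps6kl1 (0.978) and Nova2 (0.976), and those nearest to Pdgfra were Pi16 (0.937), Scara5 (0.934) and Lum (0.915), a matrix proteoglycan. Several nearest genes overlap the member itself on the opposite strand. These were Ddi1 for Pdgfd (r = 0.909, overlapping no exon of Pdgfd), the antisense gene Gm16000 for Pdgfc (r = 0.959) and the antisense gene Gm17473 for Angpt1 (r = 0.86). The sources do not state that counting used strand, so whether reads of these pairs were kept apart is unknown. The next for Pdgfd were Plcb1 (0.888) and Prkd1 (0.859), for Pdgfc Ninj1 (0.883) and Slc16a7 (0.882), and for Angpt1 Plekha6 (0.846) and Socs2 (0.821). Tek was nearest to Grasp (0.961), Arhgef28 (0.922) and Gm16046 (0.917), and Pdgfrb to Gm26903 (0.938), Gm30667 (0.929) and 4930433B08Rik (0.927). Pdgfb was nearest to 9530036M11Rik (0.887), Gnai2 (0.886) and Arap3 (0.874), Pdgfa to Arvcf (0.867), Gab1 (0.852) and Bcl9 (0.845), and Angpt2 to Glod4 (0.898), Dpm2 (0.89) and Setd1b (0.887).

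Sex was compared over the 2 Tg female and 2 Tg male libraries in each tested type, with edgeR's quasi-likelihood test and Benjamini-Hochberg adjustment over all genes of the type. Tg female 1 held almost no Ccna2 in cardiomyocytes (0.524 CPM), against 828 CPM in Tg female 2 and 232 and 143 CPM in the males. Sex and Ccna2 level were thus not separated in this comparison. Nothing in the labels says that libraries come from separate animals, so p-values measure the spread between these libraries. None of the 58 tests of a member in a type reached an adjusted p under 0.05 (lowest 0.131), while 11 had an unadjusted p under 0.05, 7 higher and 4 lower in females. DESeq2 called 2 of the pairs, or 3.45%, beside 0.65% of the tests over all genes. Over all genes, 0.196% of 85735 tests were called and 7.85% had an unadjusted p under 0.05, against 19.0% of the member tests. The called share was 0.379% in fibroblasts, 0.123% in endothelial nuclei, 0.0266% in cardiomyocytes, 0.241% in macrophages, 0.156% in pericytes, 0.237% in endocardial, 0.27% in lymphatic endothelial and 0.14% in smooth muscle nuclei. The median log2 difference of the members was 0.13 (female minus male), and the medians over all genes lay between -0.0023 and 0.023 in the 8 types.

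Pdgfd in fibroblasts came closest. It stood at 73.3 CPM in Tg female 1 and 42.4 in Tg female 2, against 129 in Tg male 1 and 125 in Tg male 2, with no overlap. The log2 fold change, female minus male, was -1.20 with an SE of 0.26 (edgeR, adjusted p = 0.131). DESeq2 gave an adjusted p of 0.00148. A fit that leaves out 1 library keeps 1 library of a sex and holds no spread within that sex, so its p-value is not given. The library labelled nTg female 1 held 110 CPM. By cluster, values of the Tg libraries differed as follows. In cluster 1 Pdgfd stood at 175 and 142 CPM in the females and 171 and 145 CPM in the males, while the females were lower in cluster 0 (40.2 and 55.8 against 104 and 107 CPM), cluster 2 (36.4 and 26.5 against 104 and 101 CPM) and cluster 3 (80.6 and 33.7 against 116 and 142 CPM). The difference between clusters was not tested. Cluster 1, where Pdgfd was highest, made up 556 and 148 of the 3107 and 2658 female fibroblasts and 800 and 747 of the 2454 and 2069 male ones. The part of this makeup in the sex difference was not tested.

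Angpt1 was likewise lower in the Tg female fibroblasts, short of the threshold. It stood at 211 and 129 CPM in Tg female 1 and 2 and at 245 and 273 CPM in Tg male 1 and 2 (log2 fold change -0.69, SE 0.25, edgeR adjusted p = 0.401). Fits with 1 library left out have the limit given for Pdgfd. Within cluster 1, whose share by library is given above and whose part was not tested, the values were 441 and 439 CPM in the females and 408 and 437 CPM in the males. In endothelial nuclei the Tg female libraries were the higher ones, with 57.2 and 45.7 CPM against 36.8 and 25.7 CPM in the Tg males (0.66, SE 0.23, edgeR adjusted p = 0.401). The library labelled nTg female 1 lay below Tg male 1 there. In cardiomyocytes the sexes overlapped (688 and 267 against 290 and 324 CPM; 0.61, SE 0.41, edgeR adjusted p = 0.871). The fitted log2 difference was -0.27 without Tg female 1 and 1.15 without Tg female 2, each with 1 female library left. Cardiomyocyte cluster 5 held 1290 and 737 of the 1978 and 942 female cardiomyocytes and 59 and 22 of the 1302 and 1180 male ones, whereas cluster 8 held 18 and 5 of the female and 648 and 728 of the male nuclei. The part of this makeup in the values was not tested.

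In macrophages Pdgfc and Pdgfb stood in opposite order between the Tg female and Tg male libraries, both short of the threshold. Pdgfc stood at 346 and 354 CPM in the Tg females and 567 and 699 CPM in the Tg males (log2 fold change -0.86, SE 0.21, edgeR adjusted p = 0.171; DESeq2 0.0489). The p-values of fits with 1 library left out are not given, since 1 sex then has 1 library. Pdgfb stood at 92.3 and 99.2 CPM in the Tg females and 66.2 and 45.2 CPM in the Tg males (0.76, SE 0.24, edgeR adjusted p = 0.308). In nTg female 1, outside this test, Pdgfb lay below its level in Tg male 1. Endothelial markers in macrophages summed to 452 and 541 CPM in the Tg females, 358 and 388 CPM in the Tg males and 339.5 CPM in nTg female 1. Their part was not tested.

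Pdgfra in endocardial nuclei was 67.2 and 120 CPM in the Tg females and 28.9 and 34.95 CPM in the Tg males, without overlap (log2 fold change 1.43, SE 0.34, edgeR adjusted p = 0.19). Leaving out 1 library keeps 1 library of a sex, so p-values of those fits are not given here either. The 10 fibroblast markers summed there to 1490 and 1568 CPM in the females and 1356 and 1128 CPM in the males, Tcf21 being at 0 in 3 of these 4 libraries, and their part in the result was not tested. The receptors in their main types were close between the sexes. Pdgfrb in pericytes had a log2 difference of -0.01 (SE 0.23), Pdgfra in fibroblasts -0.13 (SE 0.22), Tie1 in endothelial nuclei -0.12 (SE 0.16) and Tek in endocardial nuclei -0.08 (SE 0.22), none of which passed the edgeR test. Among the other ligands in their main tested types, the log2 difference was 0.05 (SE 0.16) for Pdgfb and -0.26 (SE 0.26) for Pdgfd in endothelial nuclei, 0.33 (SE 0.37) for Pdgfa in smooth muscle and 0.09 (SE 0.27) for Angpt2 in lymphatic endothelial nuclei.

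**Figure D4:**
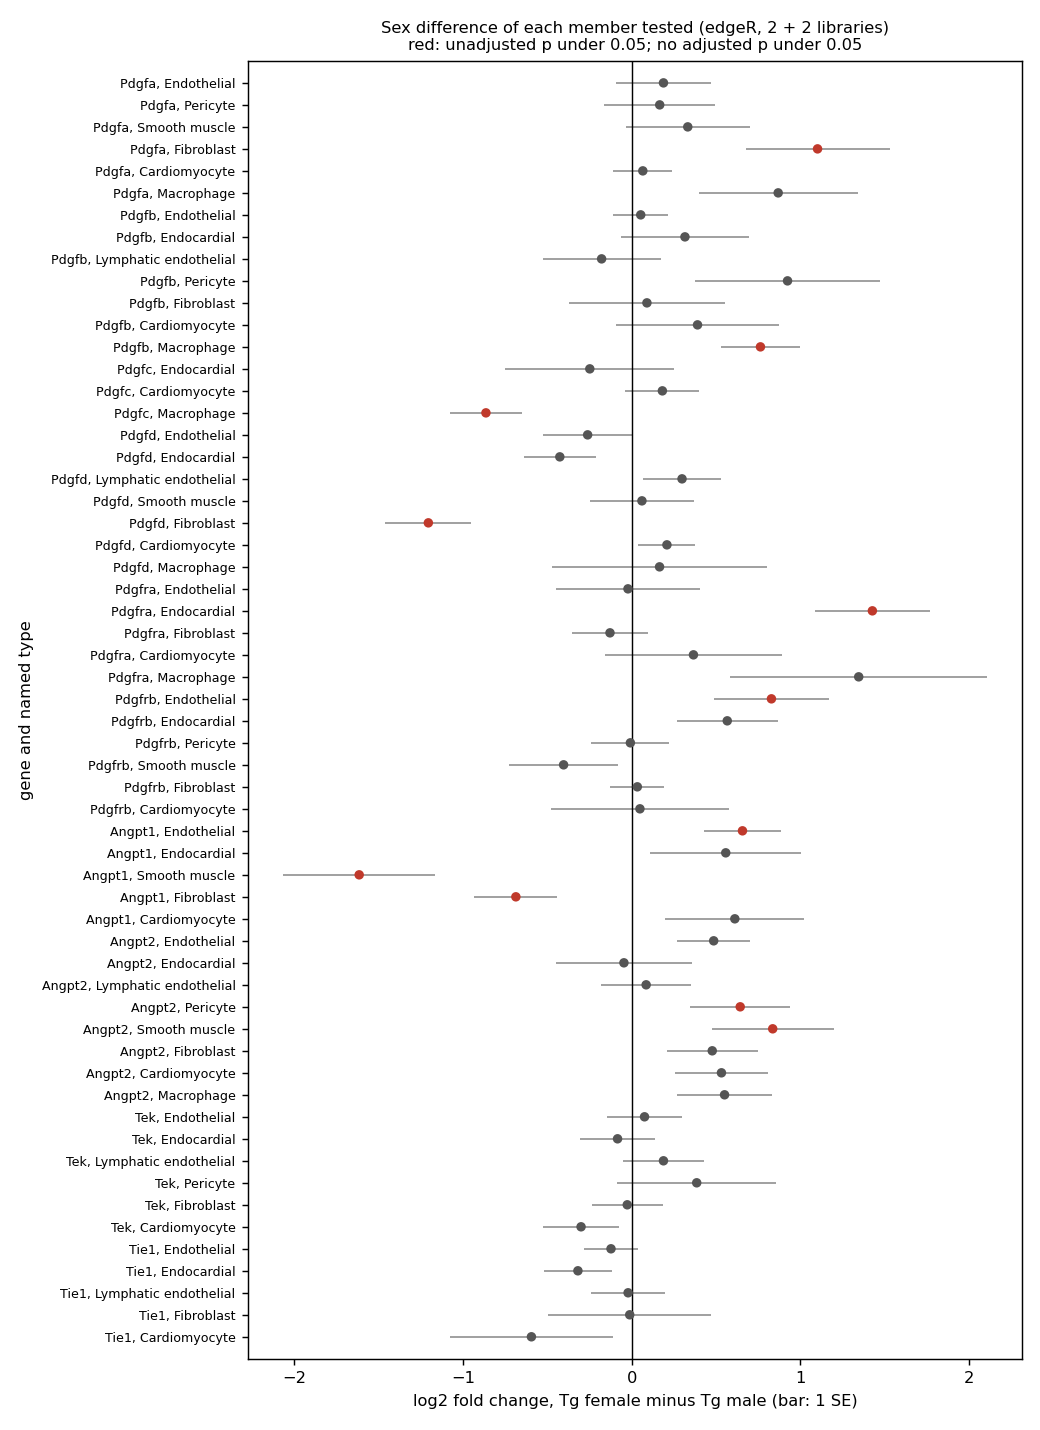
Fitted log2 fold change, Tg female minus Tg male, for the 58 tests of a gene in a named type, with bars of 1 SE, red where the unadjusted p was under 0.05. The lowest values were those of Angpt1 in smooth muscle (-1.62, SE 0.45) and Pdgfd in fibroblasts (-1.20, SE 0.26), and no adjusted p was under 0.05.

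The pathway list held 54 further genes of ligand processing, receptor binding, docking and signal transmission. None of its 356 tests by sex was called by edgeR (lowest adjusted p 0.105), and 51 had an unadjusted p under 0.05, or 14.3%, with 21 higher and 30 lower in females. The median log2 difference was -0.046. By level, 53 of the 54 genes reached 10 CPM in a tested type. The tested type with the highest level was most often endothelial (15 genes) or macrophage (12 genes). In 12 genes the highest type was at least 2 times the next.

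The library labelled nTg female 1 was set beside the 4 labelled Tg, with no test, since it is 1 library and its Ccna2 level went against its label. Of 50 pairs of member and type with at least 10 CPM, 2 lay outside the Tg range and at least 2-fold from the Tg mean, or 1 higher and 1 lower, beside 3.91% of 77510 pairs over all genes, which is close to the same share. Pdgfc in smooth muscle was the higher one, at 95.3 CPM against 43.5 and 32.0 CPM in the Tg females and 10.1 and 23.4 CPM in the Tg males, from 31 UMIs in the nTg library. Angpt2 in endocardial nuclei was the lower, at 37.0 CPM against 80.7 ± 33.8 CPM (n = 4). Pdgfb in endothelial nuclei, at 168 CPM against 240 ± 15.5 CPM, was outside the Tg range but less than 2-fold away.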

How the data were processed

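Nuclei of adult mouse heart were profiled in droplets, and the authors deposited UMI counts per gene and barcode. Cell Ranger 7.0.0 made these counts, per the file headers, and the build was mm10, per the submitters' processing notes. Whether introns and strand were counted is not given in the sources used here. The members and all gene lists were chosen with earlier results of these data known. Barcodes needed at least 200 genes and under 5% mitochondrial UMIs. Scrublet (scanpy 1.11.5, 6% expected) removed 7.63% to 11.4% as doublets. Its automatic threshold for Tg female 2 (0.62) called 0%, so the mean of the other 4 (0.147) was used, a choice made after seeing the data. Clusters used 2000 variable genes, 30 components, 15 neighbours and Leiden resolution 1, without the members, Ccna2 and sex-linked genes.

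UMIs were summed per library and type. Sex was tested with edgeR 4.0.16 (quasi-likelihood, TMM, filterByExpr, adjusted p under 0.05). Each member was named in its leading tested type and wherever called; types with an unadjusted p under 0.05 were added after values were seen. In simulated fibroblast counts over 15315 genes, 47% of 2-fold and 88% of 4-fold changes were recovered, with 10.6% false among the calls. The same values were 36%, 87% and 14.6% in endothelial nuclei, and 31%, 85% and 11.5% in pericytes. The other tested types were not simulated. Positions are from GENCODE M21 (GRCm38). Alternatives were DESeq2 1.42.0, RLE scaling, no filter or at least 10 UMIs in every library, a genotype covariate, a replicate block, single libraries left out, Leiden resolution 0.5, doublets kept, at least 500 genes, members among the clustering genes, CPM averaged per nucleus, other thinning depths and a 1.5-fold limit.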

Additional observations from a re-analysis of the deposited data

Results flagged for a closer look

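For Pdgfd and Angpt1, both Tg female libraries lay above both Tg male libraries in one type and below them in another. The share of all genes that did so was not counted, so this cannot be called particular to these members. The difference between types was not tested. For Pdgfd, the female minus male log2 fold change was 0.21 (SE 0.17) in cardiomyocytes and 0.30 (SE 0.23) in lymphatic endothelial nuclei, against -0.43 (SE 0.21) in endocardial nuclei and -1.20 (SE 0.26) in fibroblasts. In cardiomyocytes Pdgfd stood at 3.42% to 6.38% of its endothelial level and the endothelial markers at 10.5% to 14.7% of theirs. Tie1 averaged 1.43 CPM there, against 325 CPM in endothelial nuclei. The shares of cardiomyocyte clusters 5 and 8 differed between the sexes, as given above. The gaps were 0.63 between cardiomyocytes and endocardial nuclei, 1.41 between cardiomyocytes and fibroblasts, 0.72 between lymphatic endothelial and endocardial nuclei and 1.5 between lymphatic endothelial nuclei and fibroblasts. For Angpt1, the fold change was 0.66 (SE 0.23) in endothelial nuclei, against -0.69 (SE 0.25) in fibroblasts and -1.62 (SE 0.45) in smooth muscle, with gaps of 1.34 and 2.27. The smooth muscle values of Angpt1 were 22.6 and 53.3 CPM in Tg female 1 and 2 and 108 and 97.6 CPM in Tg male 1 and 2. None of these differences had an adjusted p under 0.05 in edgeR.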

How the results depend on the processing

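Over 10 alternative settings of clustering, filters, averaging and libraries, the leading type was kept in 99 of 100 cases, the exception being Pdgfa, which without Tg male 1 averaged 94.98 CPM in smooth muscle and 84.3 CPM in Schwann nuclei. Of 100 alternative values of the 10 leading levels, 98 moved by less than 1 SD, and keeping doublets moved Pdgfrb in pericytes to 1670 CPM and Tie1 in endothelial nuclei to 280 CPM. The number of members called by sex rose from 0 to 2 with DESeq2, to 5 with no filter, to 1 with at least 10 UMIs in every library, and to between 1 and 9 with 1 library left out. The genes called over all types rose from 168 to 557 with DESeq2, to 1847 (1.14%) with no filter and to between 663 (0.706%) and 2689 (2.99%) with 1 library left out, highest without Tg female 1; where that leaves 1 library of a sex, it is assumed to vary like the others. With the replicate number as a block, 3 members and 914 genes were called in edgeR. The members were Pdgfd in fibroblasts (edgeR adjusted p = 0.0107), Pdgfc in macrophages (0.0142) and Pdgfra in endocardial nuclei (0.0494). They made up 5.17% of 58 member tests, beside 1.07% of 85735 tests over all genes. The samples of a block share only a number, with correlations of -0.036 to 0.152 over types. The called share was 6.25% of 80 member tests with no filter, beside 1.14% over all genes. It was 1.96% of 51 member tests with at least 10 UMIs in every library, beside 0.221%. Fits with 1 library left out held 60 to 68 member tests. Members apart in the nTg comparison numbered 10 of 50 at 1.5-fold, beside 10.9% of all genes, and 3 to 5 (6.12% to 9.62%) with 1 Tg library left out, beside 4.01% to 4.72%. Angpt1 in cardiomyocytes, with a log2 difference of 0.61 over all 4 libraries, reversed to -0.27 without Tg female 1. The other reversals were of smaller differences. Without Tg female 1 this was Pdgfra in fibroblasts (0.04). Without Tg female 2 these were Pdgfrb in pericytes (0.08), Angpt2 in lymphatic endothelial nuclei (-0.25) and Tek in endocardial nuclei (0.06). Without Tg male 1 it was Pdgfb in endothelial nuclei (-0.04). Without Tg male 2 these were Pdgfd in endothelial nuclei (0.0049), Pdgfrb in pericytes (0.06) and Angpt2 in lymphatic endothelial nuclei (-0.03). With doublets kept it was Angpt2 in lymphatic endothelial nuclei (-0.02). With 1 library left out, the log2 difference reached at most 0.14 for Pdgfb in endothelial nuclei and 0.43 for Angpt2 in lymphatic endothelial nuclei, and at lowest -0.52 for Pdgfd in endothelial nuclei, -0.35 for Pdgfra in fibroblasts, -0.11 for Pdgfrb in pericytes and -0.28 for Tek in endocardial nuclei. Of 20 shares of nuclei recomputed at other thinning depths, 19 moved by over 1 SD. Without Tg female 2, which leaves 1 female library, the log2 difference of Angpt1 in cardiomyocytes was 1.15. The causes were not tested. Few nuclei limit the rare types, which held 71 to 205 each.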

Other observations

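A cluster of 409 nuclei led by Dkk3, Wif1 and Kcnma1 could not be given a name from the marker lists. It held 347 ± 106 CPM of Angpt1, 281 ± 46.8 CPM of Pdgfra and 193 ± 60 CPM of Pdgfrb (SD, n = 5). In the endothelium, Pdgfa was also highest in cluster 11 (27.3 ± 4.67 CPM), against 4.18 ± 1.44 to 12.9 ± 6.73 CPM in the other 3 endothelial clusters. These are values with no test.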
